A study of Homo sapiens with 9 samples.

Results

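The genes described here are 10 amino acid transporters of the plasma membrane: SLC7A11, SLC7A5, SLC3A2, SLC7A1, SLC38A1, SLC38A2, SLC1A5, SLC1A4, SLC6A9 and SLC43A1. They were chosen by name, with earlier results of these data known, as the rows of these genes in a count table of 58347 Ensembl genes. All 10 were among the 23675 genes that passed the filter on low counts. RNA was sequenced from 9 libraries of K562, a human erythroleukaemia line. All libraries came from cells that stably carried EF1a-driven dCas9, MS2-Fkbp and SS18-Frb with their blasticidin, hygromycin and puromycin resistance markers, and rapamycin joins Fkbp to Frb. As rapamycin also inhibits mTORC1, the recruitment and the inhibition cannot be told apart within the libraries of 1 guide. Cells received 10 nM rapamycin or DMSO for 24 h. With a guide RNA (sgRNA) to the HBG1 promoter there were 3 rapamycin and 3 DMSO libraries. With a non-targeting sgRNA there were 2 rapamycin libraries and 1 DMSO library. The labels do not say whether replicates were separate cultures, so p-values measure the spread between these libraries, which may be technical.

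Amino acids cross the plasma membrane on carriers of the solute carrier (SLC) families. Some exchange 1 amino acid for another, and some use the sodium gradient to concentrate their substrate. Leucine, arginine and glutamine brought in this way feed mTORC1, the kinase complex that rapamycin inhibits, and transcription of many carrier genes is known to respond to ATF4, the transcription factor of the amino acid response. SLC7A5 and SLC1A5 are known to be high in many dividing and leukaemic cells. The medium was Iscove's with serum and GlutaMAX, a glutamine dipeptide, per the labels' protocols.

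The libraries held 19797409 to 31619671 counts, and the scaling factors of the trimmed mean of M values (TMM) ran from 0.977 to 1.023. The erythroid genes GATA1 and TAL1 were at 190.0 CPM or more and 124 CPM or more in every library, CPM being edgeR's counts per 1e6 counts of the TMM-scaled library. All 11 K562 markers passed the filter, and with rapamycin and the HBG1 sgRNA 2 were called higher (NFE2, GATA1) and 1 lower (TFRC). Of 16 markers of other cells 12 passed it, of which 0 were called by edgeR or DESeq2 and 5 had an unadjusted p under 0.05. With replicate number as a block, edgeR called 4 of them higher, KRT8 (log2 fold change 0.32, adjusted p 0.00127), ITGA2B (0.36, 0.00517), COL1A2 (0.55, 0.00922) and LYZ (0.34, 0.0274), and 4 K562 markers higher, with HBZ and HBE1 added. The part of these markers in the results below was not tested. The 4 that did not pass the filter were at or near 0, each under 0.4 CPM in all libraries. They are the B cell gene MS4A1, the T cell gene CD3E and the platelet genes PF4 and PPBP. As the filter removes low counts, their levels do not show that markers of other cells were absent. Among those that passed, KRT8 stood at 320.2 to 524 CPM over the 9 libraries, above GATA1 in each. KRT18 stood at 168 to 221 CPM and ITGA2B at 33.1 to 61.9 CPM. CD14 and MPO also passed and were at most 1.22 and 0.618 CPM. HBG1, the gene at the guide's site, went from 296 ± 150.2 CPM with DMSO to 1930 ± 469 CPM with rapamycin where its sgRNA was present (SD, n = 3 each), and at 8233 and 8897 CPM in the non-targeting groups. In replicate 1 with the HBG1 sgRNA, both libraries stood apart from the others of their group, and results below are given without them where they differ.

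The promoters of the carriers are shown for 3 sequence elements. These are TGATGNAA, the composite element bound by ATF4 with C/EBP proteins, CACGTG, the E-box bound by MYC and related factors, and TGACNNNGC, the antioxidant response element. Each was searched on both strands from 250 bases before to 50 after each RefSeq start (GRCh38.p14). The table held 16 starts of 9 of the 10 genes, and SLC7A11 was not among them. A TGATGNAA match stood at a start of 5 of these 9 genes (SLC3A2, SLC7A1, SLC38A1, SLC1A5 and SLC1A4), against 4.46% of all 27305 genes in the table. By start, 5 of the 16 had a match, against 3.62% of all 35116 starts. The 5 matches follow in 30-base windows on the gene's strand, with the match in capitals.
SLC1A5 (chr19:46784893-46784922, minus strand): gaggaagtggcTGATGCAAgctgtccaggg
SLC38A1 (chr12:46266502-46266531, minus strand): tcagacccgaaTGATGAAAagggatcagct
SLC1A4 (chr2:64989381-64989410, plus strand): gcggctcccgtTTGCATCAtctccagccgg
SLC7A1 (chr13:29595663-29595692, minus strand): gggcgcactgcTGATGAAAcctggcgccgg
SLC3A2 (chr11:62881719-62881748, plus strand): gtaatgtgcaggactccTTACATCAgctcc
The SLC1A5 match lies 97 bases before an internal start. The starts matched in SLC3A2, SLC38A1 and SLC1A4 also lie inside the bounds of the gene in GENCODE 29. At the outermost start of SLC1A5 none of the 3 elements had a match. The SLC3A2 and SLC7A1 matches lie after their starts. For SLC38A1, unlike the other genes, the end of the window was not found in a transcript. SLC7A5 and SLC38A2, whose RNA fell with rapamycin, had no match in their windows, and SLC1A4, which was not called, had one. Matches outside the windows were not sought, and a link between the element and the changes was not tested.

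The E-box CACGTG stood at a start of SLC7A5, SLC1A5 and SLC43A1 (3 of 9 genes, against 8.77% of all genes). By start, 3 of 16 had it, against 7.26% of all starts. SLC7A5 and SLC1A5 fell with rapamycin and SLC43A1 rose, and a link between the E-box and these changes was not tested. TGACNNNGC stood at a start of 4 of 9 genes (SLC7A5, SLC3A2, SLC7A1 and SLC1A5), against 16.1% of all genes. By start, 4 of 16 had it, against 13.3% of all starts. The E-box and TGACNNNGC matches of SLC1A5 and the TGACNNNGC match of SLC3A2 lie at internal starts. The 250 bases before the start of SLC7A5, the transporter with the smallest p-value, and of SLC7A1 are shown, with the E-box of SLC7A5 and the TGACNNNGC match of SLC7A1 in capitals, beside the E-box windows of SLC43A1 and SLC1A5. The TGACNNNGC match of SLC7A5 spans its start and is not in capitals. A match is a description of the letters, and binding was not measured.
SLC7A5 (chr16:87869508-87869757, minus strand): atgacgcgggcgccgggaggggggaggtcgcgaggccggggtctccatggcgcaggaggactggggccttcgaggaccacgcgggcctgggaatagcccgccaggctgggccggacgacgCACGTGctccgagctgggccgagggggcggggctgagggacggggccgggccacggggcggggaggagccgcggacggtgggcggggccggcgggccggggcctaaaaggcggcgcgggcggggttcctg
SLC7A1 (chr13:29595689-29595938, minus strand): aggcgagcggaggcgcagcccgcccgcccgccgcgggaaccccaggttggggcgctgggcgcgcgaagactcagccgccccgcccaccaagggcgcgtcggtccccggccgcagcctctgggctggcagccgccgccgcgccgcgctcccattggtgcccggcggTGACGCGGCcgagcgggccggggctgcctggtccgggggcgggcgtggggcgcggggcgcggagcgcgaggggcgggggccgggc
SLC43A1 (chr11:57515797-57515826, minus strand): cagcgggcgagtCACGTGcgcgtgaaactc
SLC1A5 (chr19:46787326-46787355, minus strand): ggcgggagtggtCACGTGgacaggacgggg

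Rapamycin against DMSO with the HBG1 sgRNA lowered 7 of the 10 transporters and raised 1 (adjusted p under 0.05, quasi-likelihood test of edgeR, Benjamini-Hochberg adjustment over all genes tested). SLC7A5, SLC7A11, SLC38A1, SLC7A1, SLC1A5, SLC38A2 and SLC3A2 fell, SLC43A1 rose, and SLC1A4 and SLC6A9 did not pass. Of all genes tested, 4.05% were called lower and 2.75% higher, or 6.80% in all. As the transporters were chosen with earlier results of these data known, setting them beside such shares of all genes is a description and not a test. At an unadjusted p under 0.05 there were 9 of the 10 transporters, SLC6A9 included, against 20.8% of all genes. The 7 were lower in every rapamycin library than in any DMSO library, as were 13.1% of all genes, and lower in all 3 replicate pairs, as were 22.4%. SLC43A1 was higher in every rapamycin library, as were 12.2%. The median log2 fold change was -0.37 over the 10 transporters and 0.02 over all genes. In bulk RNA, fewer cells of a type and less RNA per cell cannot be told apart. Called genes as a whole were lower in 59.6% of cases with TMM scaling and in 45.1% with upper-quartile scaling, under which 5 transporters were called lower and 1 higher. With replicate number as a block the same 8 transporters passed in the same directions, while the count over all genes went from 1609 to 3441 (17.1%, with 9.62% lower and 7.43% higher).

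**Figure D1:**
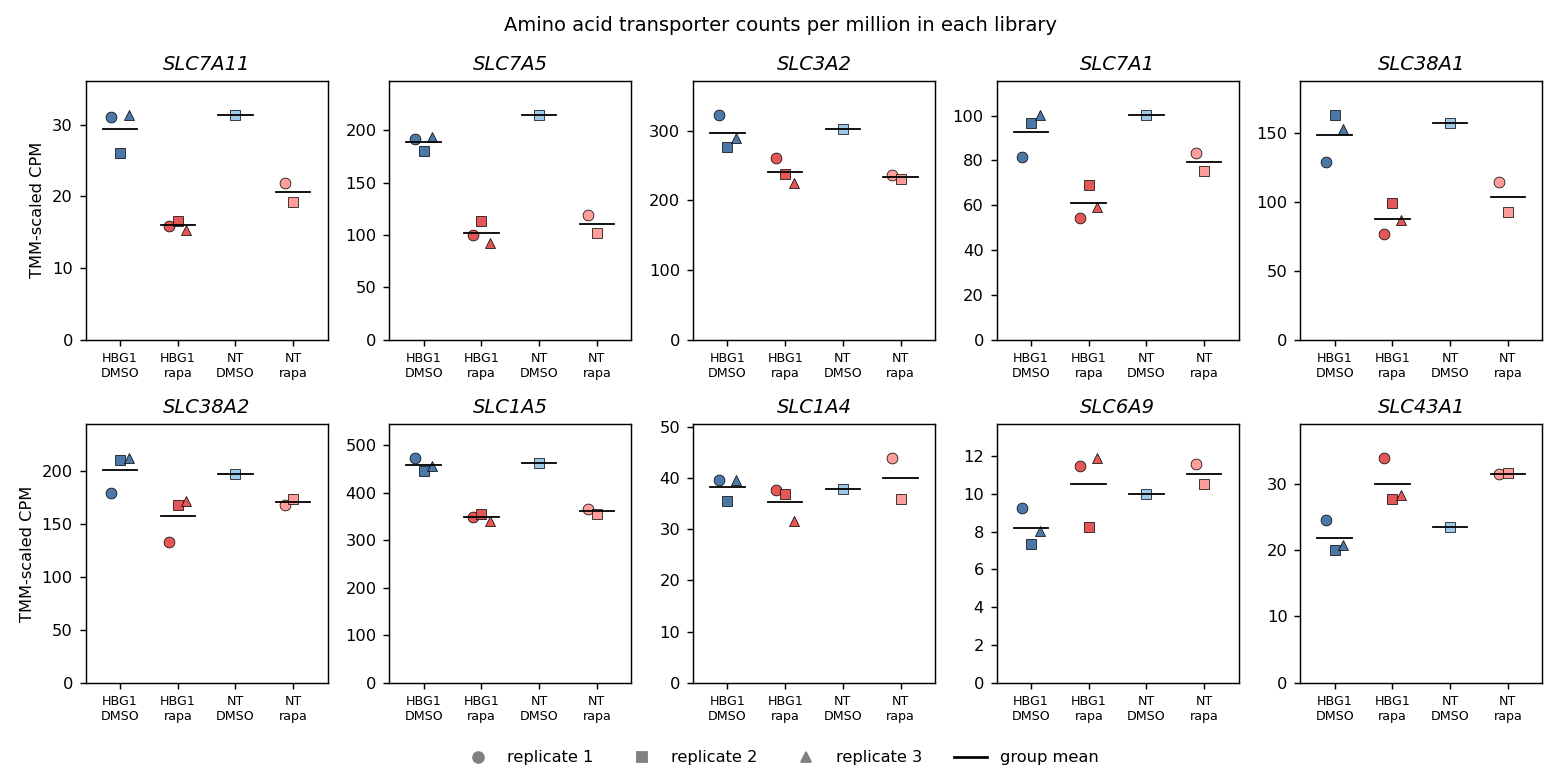
TMM-scaled CPM (vertical axes from 0) of each transporter in the 9 libraries, by guide (HBG1, HBG1 promoter sgRNA; NT, non-targeting sgRNA) and treatment (rapa, rapamycin), with group means as lines. In SLC7A11, SLC7A5, SLC3A2, SLC7A1, SLC38A1, SLC38A2 and SLC1A5 the 3 HBG1 sgRNA rapamycin libraries sit below the 3 DMSO libraries, and in SLC43A1 they sit above.

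The heteromeric exchangers pair a transporting light chain with SLC3A2 (4F2hc, CD98), the heavy chain that carries it to the membrane. SLC7A5 (LAT1, ENSG00000103257) brings in leucine and other large neutral amino acids in exchange for glutamine. It lies on chromosome 16 from 87830023 to 87869488 on the minus strand (GRCh38, GENCODE 29). It stood at 192, 180.3 and 194 CPM in DMSO replicates 1 to 3 and at 99.8, 113 and 92.8 CPM in the rapamycin replicates. All rapamycin libraries were below all DMSO libraries, and SLC7A5 fell by 46.0% (log2 fold change -0.89, SE 0.09, adjusted p 5.47e-05). By p-value it ranked 7 of all genes tested.

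SLC7A11 (xCT, ENSG00000151012; chromosome 4, 138164097 to 138242349, minus strand) exports glutamate for cystine, the source of cysteine for glutathione. It stood at 31.1, 26.0 and 31.3 CPM under DMSO and at 15.9, 16.6 and 15.3 CPM under rapamycin. The groups did not overlap, and it fell by 45.9% (log2 fold change -0.89, SE 0.11, adjusted p 3.06e-04). This gene rests on 309 to 470 counts per rapamycin library.

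SLC3A2 (ENSG00000168003; chromosome 11, 62856102 to 62888875, plus strand), the shared heavy chain, fell less. It stood at 323, 277 and 289 CPM under DMSO and at 261, 238 and 225 CPM under rapamycin, and fell by 18.6% (log2 fold change -0.30, SE 0.08, adjusted p 0.0314). The groups did not overlap, but the highest rapamycin library (261) lay close to the lowest DMSO library (277). Fitted on the 6 HBG1 sgRNA libraries alone, SLC3A2 was not called (edgeR adjusted p 0.0582), nor was it with upper-quartile scaling (0.0703). The call was lost in 7 of the 9 fits that left out 1 library. It was lost without each HBG1 sgRNA DMSO library, rapamycin replicate 2 or 3, or either non-targeting rapamycin library, with adjusted p from 0.0533 to 0.152, and kept without both replicate 1 libraries (0.00683).

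Per kb of exon, SLC7A5 stood at 0.697 ± 0.0451 of SLC3A2 under DMSO and at 0.462 ± 0.0526 of it under rapamycin (SD, n = 3 each). SLC7A11 stood at 0.0534 ± 0.00410 and 0.0356 ± 0.00248 of SLC3A2. The ratio of SLC7A11 to SLC7A5 was 0.0767 ± 0.00501 and 0.0773 ± 0.00455. On the log2 scale the rapamycin minus DMSO differences of these ratios were -0.60, -0.59 and 0.01. Both light chains were thus lower relative to the heavy chain in every rapamycin library than in any DMSO library. Two-sided exact permutation p-values were 0.1, 0.1 and 0.700. The labelings moved libraries freely between treatments and did not keep replicate pairs, here and for the other ratios below. The value 0.1 is the smallest that 20 labelings allow, and adjusted over the 5 ratios computed, chosen after the values were seen, it was 0.125. The non-targeting libraries stood at 0.777 (DMSO) and at 0.482 and 0.546 (rapamycin) for SLC7A5 over SLC3A2. For SLC7A11 over SLC7A5 they stood at 0.0719 (DMSO) and at 0.0909 and 0.0927 (rapamycin), both above every HBG1 sgRNA library (0.0709 to 0.0810). The level of each ratio depends on the length used, and its change between treatments does not. SLC3A2 has 5178 bases of exon in all but 2222 in its longest transcript. By the longest transcript, the medians over the 6 HBG1 sgRNA libraries were 32.4 CPM per kb for SLC7A5 and 121 for SLC3A2.

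SLC7A1 (CAT1, ENSG00000139514; chromosome 13, 29509410 to 29595688, minus strand) carries the cationic amino acids arginine, lysine and ornithine, and needs no heavy chain. It stood at 81.5, 96.8 and 100.2 CPM under DMSO and at 54.3, 69.0 and 59.4 CPM under rapamycin. The groups did not overlap, and it fell by 34.3% (log2 fold change -0.61, SE 0.10, adjusted p 0.00197).

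The sodium-coupled carriers of small neutral amino acids, SLC38A1 (SNAT1) and SLC38A2 (SNAT2), load glutamine and alanine that exchangers can then trade for leucine. Both are on the minus strand of chromosome 12, SLC38A1 (ENSG00000111371) from 46183063 to 46270017 and SLC38A2 (ENSG00000134294) from 46358189 to 46372867. SLC38A1 stood at 129, 163 and 153 CPM under DMSO and at 76.3, 99.1 and 86.9 CPM under rapamycin. It fell by 40.9% with no overlap of groups (log2 fold change -0.76, SE 0.11, adjusted p 7.82e-04). SLC38A2 stood at 179, 209.7 and 212 CPM under DMSO and at 133, 168 and 171 CPM under rapamycin.

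In SLC38A2 replicate 1 was the lowest library of both groups, and the groups came within 8 CPM of each other without overlap. It fell by 21.3% (log2 fold change -0.35, SE 0.09, adjusted p 0.0379). That call was lost without HBG1 sgRNA DMSO replicate 2 or 3, without rapamycin replicate 1 or 3, and without either non-targeting rapamycin library (adjusted p 0.0564 to 0.161). It was also lost on the 6 HBG1 sgRNA libraries alone (edgeR adjusted p 0.0664), with upper-quartile scaling (0.0629) and with library totals only (0.0831). The log2 fold change was -0.24 without rapamycin replicate 1 alone and -0.31 without both replicate 1 libraries (adjusted p 0.00463). Per kb of exon the ratio of SLC38A1 to SLC38A2 was 0.487 ± 0.0212 under DMSO and 0.367 ± 0.0291 under rapamycin (SD, n = 3 each; two-sided exact permutation p 0.1, adjusted 0.125).

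SLC1A5 (ASCT2) and SLC1A4 (ASCT1) exchange neutral amino acids in a sodium-dependent way, and SLC1A5 is a main glutamine carrier of dividing cells. SLC1A5 (ENSG00000105281; chromosome 19, 46774883 to 46788594, minus strand) stood at 473, 446 and 457 CPM under DMSO and at 348, 356 and 339.7 CPM under rapamycin. Replicates lay close together and the groups far apart, and it fell by 24.1% (log2 fold change -0.40, SE 0.06, adjusted p 0.00182). SLC1A4 (ENSG00000115902; chromosome 2, 64988477 to 65023865, plus strand) stood at 39.5, 35.4 and 39.6 CPM under DMSO and at 37.7, 36.8 and 31.6 CPM under rapamycin. Its groups overlapped, and its log2 fold change of -0.11 (SE 0.10, adjusted p 0.601) did not pass. The 95% intervals of the 2 changes overlapped, at -0.33 to 0.11 for SLC1A4 and -0.54 to -0.26 for SLC1A5. Leaving out 1 library moved SLC1A4 to between -0.16 and -0.03, the latter without rapamycin replicate 3. Per kb of exon the ratio of SLC1A5 to SLC1A4 ran from 24.0 to 26.2 under DMSO and from 19.3 to 22.4 under rapamycin, a log2 difference of -0.28 (two-sided exact permutation p 0.1, adjusted 0.125).

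The remaining carriers were not lower. SLC43A1 (LAT3, ENSG00000149150; chromosome 11, 57484534 to 57515786, minus strand) carries leucine and other large neutral amino acids by facilitated diffusion, with no heavy chain. It stood at 24.6, 20.0 and 20.7 CPM under DMSO and at 33.9, 27.7 and 28.3 CPM under rapamycin. All rapamycin libraries were higher, a rise of 37.2% (log2 fold change 0.46, SE 0.11, adjusted p 0.0233). By replicate pair its log2 changes were 0.45, 0.45 and 0.43. The call was lost without HBG1 sgRNA DMSO replicate 2 or 3 or rapamycin replicate 1 or 3 (adjusted p 0.0552 to 0.116), and kept with the block (0.00150). SLC6A9 (GLYT1, ENSG00000196517; chromosome 1, 43991500 to 44031467, minus strand) is the glycine carrier that supplies haem synthesis in red cell precursors. It stood at 9.23, 7.36 and 8.02 CPM under DMSO and at 11.5, 8.22 and 11.9 CPM under rapamycin. Rapamycin replicate 2 lay among the DMSO libraries, and the log2 fold change of 0.36 (SE 0.17, adjusted p 0.226) did not pass.

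**Figure D2:**
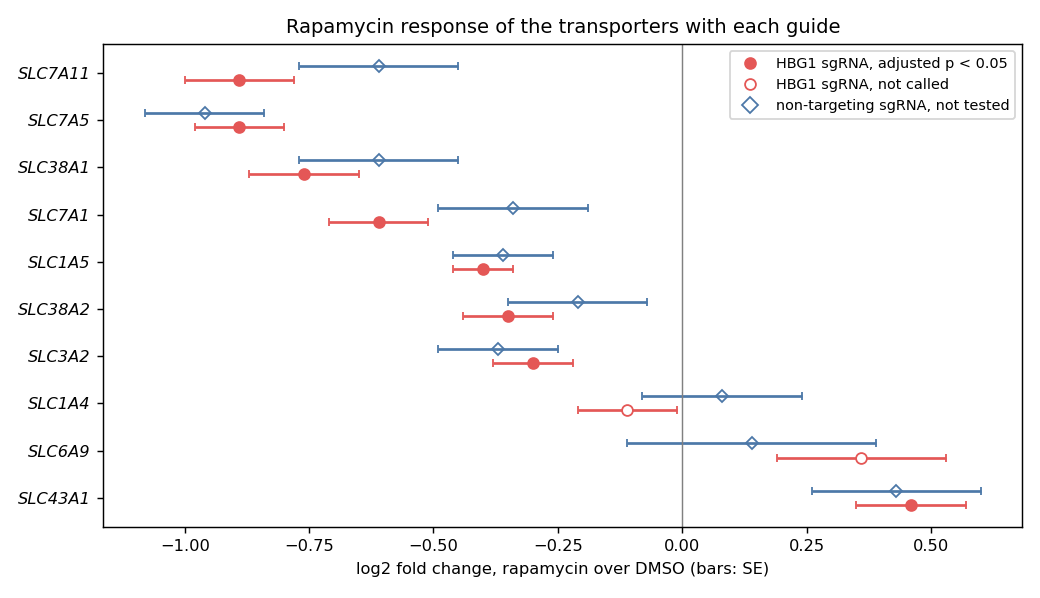
Log2 fold change of rapamycin over DMSO (horizontal axis, bars are SE) for each transporter with the HBG1 sgRNA (circles, filled where adjusted p is under 0.05) and the non-targeting sgRNA (diamonds, not tested, 1 DMSO library). SLC7A5 and SLC7A11 are lowest with the HBG1 sgRNA at -0.89, and SLC43A1 is highest with either guide, at 0.46 and 0.43.

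Summed over the 10 transporters, the HBG1 sgRNA libraries went from 1482 ± 22.0 CPM with DMSO to 1089 ± 37.9 CPM with rapamycin (SD, n = 3 each). The non-targeting libraries held 1537 CPM under DMSO and 1127 and 1196 CPM under rapamycin. SLC1A5 was the largest share of the summed CPM in every library, so the sum follows it more than the low carriers. By replicate pair the log2 changes of SLC7A5 were -0.93, -0.67 and -1.06, and those of SLC7A11 were -0.92, -0.62 and -0.99, in both cases least in pair 2. SLC38A1 varied less between pairs, at -0.74, -0.71 and -0.81.

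With the non-targeting sgRNA, 2 rapamycin libraries were set against 1 DMSO library, so fold changes are given without a test. SLC7A5 stood at 215 CPM under DMSO and at 119 and 102 CPM under rapamycin, the lowest log2 fold change of the transporters at -0.96. SLC7A11 stood at 31.4 CPM against 21.9 and 19.2 CPM (-0.61), and SLC38A1 at 157 CPM against 114 and 92.3 CPM (-0.61). The changes of SLC3A2, SLC1A5, SLC7A1 and SLC38A2 were -0.37, -0.36, -0.34 and -0.21, with both rapamycin libraries below the DMSO library in each. Both rapamycin libraries were below it in 7 of the 10 transporters, and in 35.4% of all genes tested. SLC43A1 was higher in both, at 31.5 and 31.6 CPM against 23.5 CPM (0.43), while SLC1A4 (0.08) and SLC6A9 (0.14) lay near 0.

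The rapamycin change with one guide was then set against that with the other, as an interaction. The lone DMSO library of the non-targeting sgRNA was assumed to vary like the libraries of the other groups. By edgeR's quasi-likelihood test 0 of the 10 transporters passed, 0 had an unadjusted p under 0.05 and 0 passed by DESeq2. Of all genes, 0.00422% were called and 2.86% had an unadjusted p under 0.05. With the replicate block within each guide, 0 of 10 transporters and 0.0211% of genes were called. The interactions ran from -0.28 (SLC7A11) to 0.23 (SLC6A9) on the log2 scale. Without non-targeting rapamycin replicate 1 that of SLC7A11 was -0.18, and with the block -0.17. That of SLC6A9 ran from 0.13 (without HBG1 sgRNA rapamycin replicate 3) to 0.37 (without replicate 2) leaving out 1 library, and was 0.15 without DMSO replicate 2. Their 95% intervals are wide: that of SLC7A11 ran from -0.70 to 0.15, that of SLC7A5 from -0.25 to 0.40, and that of SLC1A5, the narrowest, from -0.29 to 0.21. Differences of such sizes were not detectable with 1 library in a group.

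Between guides under rapamycin, 3 HBG1 sgRNA libraries against 2 non-targeting libraries, 0 of 10 transporters passed by edgeR's quasi-likelihood test and 0 by DESeq2, and 2 had an unadjusted p under 0.05. Of all genes, 0.0296% were called (0.0127% lower and 0.0169% higher), and 6.27% had an unadjusted p under 0.05. These 2 were SLC7A1, at 54.3 to 69.0 CPM with the HBG1 sgRNA and 75.4 and 83.1 CPM without it (log2 fold change -0.38, SE 0.11, adjusted p 0.773), and SLC7A11, at 15.3 to 16.6 CPM against 19.2 and 21.9 CPM (-0.37, SE 0.13, adjusted p 0.773). SLC1A5 also did not overlap, at 339.7 to 356 CPM against 356 and 366 CPM (the values at 356 differ before rounding), so 3 of 10 were lower in all HBG1 sgRNA libraries, against 11.3% of all genes. Without a filter on low counts SLC7A1 passed (adjusted p 0.0458).

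Levels can be compared between genes per length, here as CPM per kb of the union of a gene's exons. Over the 6 HBG1 sgRNA libraries the medians ran from 120.2 for SLC1A5 to 1.69 for SLC6A9. Below SLC1A5 came SLC3A2 (51.9), SLC7A5 (30.9), SLC38A2 (26.6), SLC38A1 (11.4), SLC7A1 (9.78), SLC43A1 (7.41), SLC1A4 (5.36) and SLC7A11 (2.21). These medians pool both treatments, and the order of neighbours differed between them. Under DMSO SLC7A5 (38.0 to 41.0) lay wholly above SLC38A2 (27.2 to 32.1), while under rapamycin they overlapped, at 19.5 to 23.9 and 20.1 to 25.9. SLC7A1 (10.6 to 13.0) likewise lay above SLC43A1 (5.66 to 6.97) under DMSO and overlapped it under rapamycin, at 7.07 to 8.97 and 7.84 to 9.60. Every DMSO library of SLC7A11 lay above those of SLC6A9 (1.43 to 1.79), and under rapamycin these overlapped at 1.58 to 1.72 and 1.59 to 2.30. SLC43A1 and SLC1A4 overlapped under DMSO (5.10 to 5.71 for SLC1A4) and not under rapamycin (4.56 to 5.43). SLC38A1 and SLC7A1 overlapped under both treatments. SLC1A5 over SLC3A2, SLC3A2 over SLC7A5, SLC38A2 over SLC38A1 and SLC1A4 over SLC7A11 did not overlap in the pooled ranges. The order also depends on the length used: by the longest transcript SLC3A2 stood at 121, SLC38A2 (35.9) above SLC7A5 (32.4), and SLC6A9 (2.79) above SLC7A11. The means of SLC7A11 and SLC6A9 changed places: under DMSO SLC7A11 stood at 3.06 ± 0.312 and SLC6A9 at 1.59 ± 0.184 CPM per kb, and under rapamycin at 1.65 ± 0.0705 and 2.04 ± 0.389 (SD, n = 3 each).

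**Figure D3:**
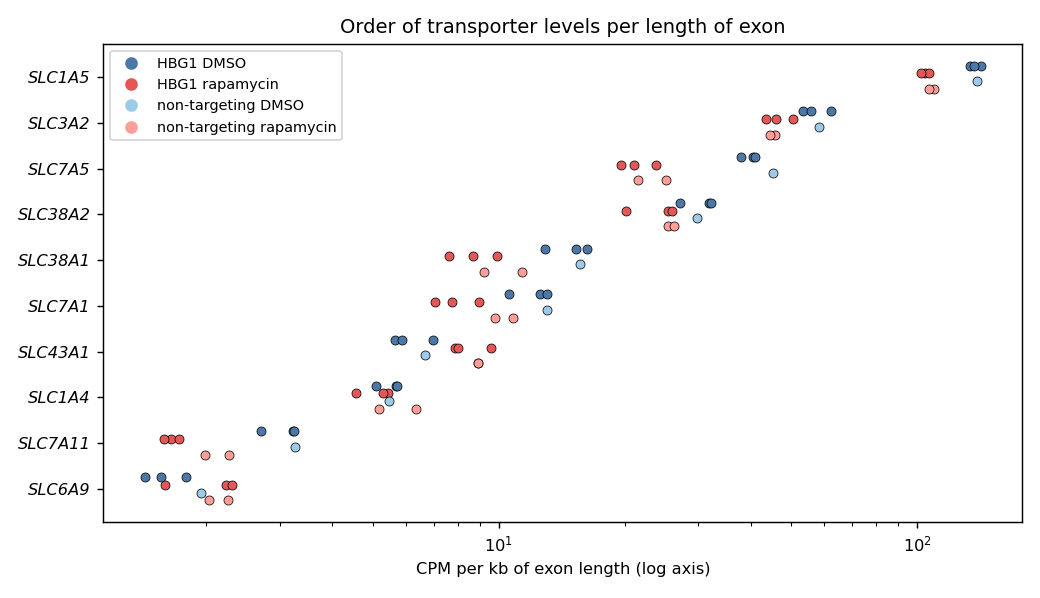
CPM per kb of exon length (log axis) of each transporter in the 9 libraries, coloured by guide and treatment, ordered by the median over the 6 HBG1 sgRNA libraries. SLC1A5 sits above 100 in every library, and SLC7A11 and SLC6A9 lie lowest, between 1.43 and 3.26.

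Some exons of the carriers overlap antisense genes, and with no strand setting stated their reads cannot be told apart. AC126696.2, antisense to SLC7A5, went from 19.5 to 11.1 CPM with the HBG1 sgRNA (log2 fold change -0.82, edgeR adjusted p 0.00243). AC008622.2, antisense to SLC1A5, went from 125 to 92.3 CPM (-0.44, edgeR adjusted p 0.0184). SLC7A11-AS1 went from 3.55 to 2.17 CPM and was not called (-0.71, edgeR adjusted p 0.146). Each of these 3 antisense genes had the sign of its transporter, and each was below it in CPM.

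Other genes that move or sense amino acids were read from lists beside the 10 carriers. For each list, the shares over all genes tested by edgeR were 4.05% called lower and 2.75% higher. With the replicate block they were 9.62% and 7.43%, and 20.8% had an unadjusted p under 0.05 in the fit without it. Of 35 other amino acid carriers listed as those of the plasma membrane, 16 were tested. With rapamycin and the HBG1 sgRNA 2 fell and 2 rose, with a median log2 fold change of 0.00. Where each protein lies in the cell was not measured. SLC7A6 (y+LAT2), another light chain of SLC3A2, went from 95.5 ± 4.26 to 74.0 ± 10.9 CPM (SD, n = 3 each; log2 fold change -0.37, edgeR adjusted p 0.0278). SLC38A5 (SNAT5), a glutamine carrier, went from 142 ± 7.84 to 110.4 ± 11.1 CPM (-0.37, edgeR adjusted p 0.0197). SLC43A2 (LAT4), the closest relative of SLC43A1, rose from 22.2 ± 1.79 to 30.8 ± 3.25 CPM (0.48, edgeR adjusted p 0.0166). SLC38A10 rose from 74.0 ± 2.49 to 94.1 ± 10.2 CPM (0.35, edgeR adjusted p 0.0206). Both the LAT3 and LAT4 genes rose while the LAT1 gene fell.

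SLC7A8 (LAT2), the other large neutral amino acid light chain of SLC3A2, stood at 119 ± 14.9 and 154 ± 25.4 CPM and was not called (log2 fold change 0.37, edgeR adjusted p 0.0996). It passed with replicate number as a block (edgeR adjusted p 5.20e-04), as did SLC6A19 (0.00740), and both were named after their values were seen.

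Inside the cell, 0 of 7 tested lysosomal carriers passed by edgeR's quasi-likelihood test, 1 had an unadjusted p under 0.05, and 1 passed by DESeq2. SLC38A9, the lysosomal arginine sensor of mTORC1, was the highest, at 14.5 ± 1.24 and 19.1 ± 1.89 CPM (SD, n = 3 each; log2 fold change 0.40, edgeR adjusted p 0.0812), and passed with the block (0.0250). It was singled out after its values were seen. Of 11 tested mitochondrial carriers 2 fell and 0 rose: SLC25A22, a glutamate carrier, from 47.9 ± 2.17 to 36.3 ± 2.45 CPM (-0.40, edgeR adjusted p 0.0123), and SFXN1, a serine carrier, from 136 ± 9.46 to 109 ± 3.49 CPM (-0.32, edgeR adjusted p 0.0167). With the block 4 mitochondrial carriers fell, with SLC25A44 (edgeR adjusted p 0.0206) and SFXN2 (0.0251) added.

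The amino acid response list, ATF4 and its known targets outside transport, had 16 of 25 genes lower and 0 higher. Of all genes 4.05% were lower and 2.75% higher. The list's median log2 fold change was -0.50, with 23 of the 25 genes negative and 2 positive. ATF4 itself fell from 251 ± 18.6 to 194 ± 32.4 CPM (SD, n = 3 each; -0.37, edgeR adjusted p 0.0316). The largest called falls were CHAC1, a glutathione-degrading enzyme (-1.56, edgeR adjusted p 0.0183), DDIT4, an inhibitor of mTORC1 (-1.55, 1.32e-04), and PSAT1 of serine synthesis (-1.03, 4.26e-05). Of 9 glutathione and cystine reduction genes 1 fell, GSR, glutathione reductase, from 149 ± 6.73 to 113 ± 6.65 CPM (-0.40, edgeR adjusted p 0.00422), and the list's median was -0.17. With the block 2 fell, with TXNRD1, thioredoxin reductase, added (edgeR adjusted p 0.0200). The rate-limiting synthesis genes GCLC (-0.13) and GCLM (-0.17) were not called. ATF4, GCLC, GCLM and the genes added with the block fall outside the rule for named genes and were chosen after their values were seen.

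**Figure D4:**
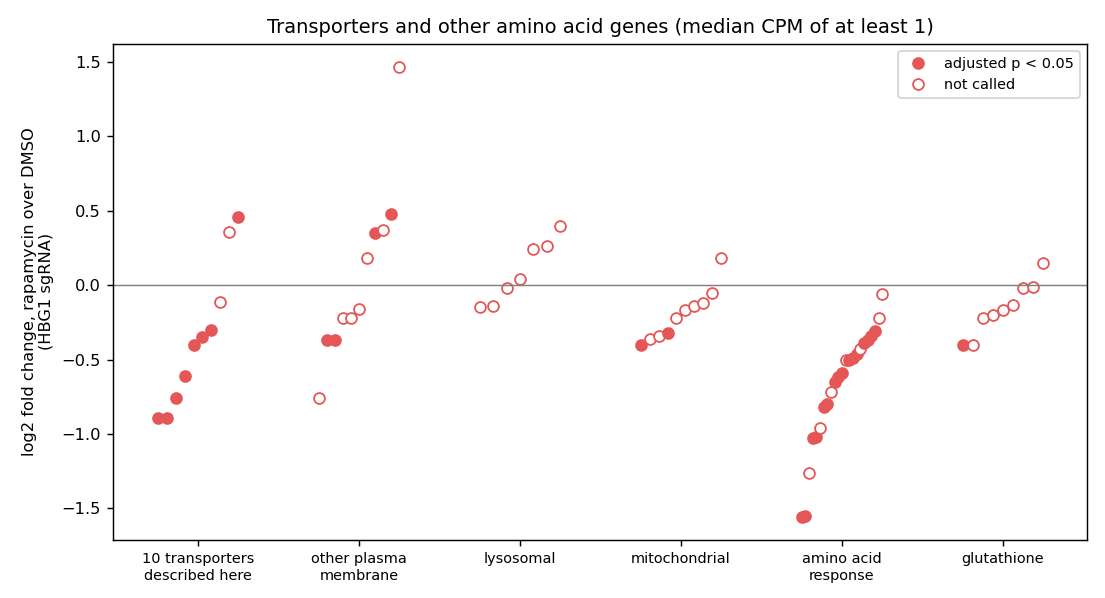
Log2 fold change of rapamycin over DMSO with the HBG1 sgRNA (vertical axis) for the 10 transporters and 5 other lists of amino acid genes with a median CPM of at least 1, 1 point per gene, filled where adjusted p is under 0.05. The 10 transporters reach from -0.89 to 0.46, all amino acid response genes plotted lie below 0, and no filled point stands among the lysosomal carriers. The 2 amino acid response genes above 0, at most 0.19 and not called, have a lower median CPM and are not plotted.

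For each transporter the most similar other gene was sought among 10797 genes by Pearson's r of log2(CPM + 1) over the 9 libraries. As the libraries fall into treatment groups, any gene that changed with rapamycin shares part of the pattern, and no p-value is given. The closest was PYCR1, of proline synthesis, for SLC3A2 (r 0.988) and HSPA5, an endoplasmic reticulum chaperone, for SLC1A5 (0.993). For SLC7A11, SLC7A1, SLC38A1 and SLC38A2 these were HNRNPH1 (0.979), TAF2 (0.983), SART3 (0.994) and AVL9 (0.986). EIF3CL, a near-identical copy of EIF3C whose counts are uncertain, was closest to SLC7A5 (0.989). LINC00467 was closest to SLC43A1 (0.980), RPS6KC1 to SLC6A9 (0.953) and PCBP2 to SLC1A4 (0.923).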

How the data were processed

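The deposited values are raw read counts, whole numbers by Ensembl gene ID, in a single table of 9 libraries. Per the labels' protocols, RNA was selected on poly-T and made into NEBNext Ultra libraries. STAR 2.7.3a, featureCounts, Subread 2.0.0, R 4.1.2, limma 3.34.9, edgeR 3.24.0 and the build GRCh38 are named, per the submitters' processing notes. The annotation release, the strand setting and the handling of multi-mapping reads are not given in the sources used here. Symbols and positions are those of GENCODE 29 (GRCh38), which held 58039 of 58347 gene IDs (99.47%), and promoter sequences are RefSeq's.

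Counts were analysed here with edgeR 4.0.16 in R 4.3.3 after filterByExpr (minimum count 10) and TMM scaling, which gave CPM. One quasi-likelihood fit held all 9 libraries with 1 mean per group. Standard errors are the log2 fold change over the square root of F. Titles gave the groups and replicate numbers. No replicate pair was a repeat of one library (chi-square per gene 4.74 to 18.6). Depth is 19797409 to 31619671 counts per library, and the transporters had 163 counts or more in each.

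Same-numbered HBG1 sgRNA libraries deviated together over 11498 genes (correlations 0.553, 0.278 and 0.231, limit 0.1), so by that limit the numbers pair them. Replicate 1 carries much of this, since replicates 2 and 3 also correlated when crossed (0.258 and 0.194). The fit has no block, and the blocked fit is an alternative. Between guides the values were -0.0676 and -0.0687. DESeq2 1.42.0 was another alternative.

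All 10 transporters are named. From each other list the 3 lowest and 3 highest called genes with a mean of at least 1 CPM are named. For each transporter the most similar gene with a mean of at least 10 CPM is named. The transporters and lists were chosen with earlier results of these data known. A comparison of protein sequences was not run, and protein sequences were not used here.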

Additional observations from a re-analysis of the deposited data

How the results depend on the processing

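SLC7A5, SLC7A11, SLC38A1, SLC7A1 and SLC1A5 kept their fall and call under all 19 alternatives each (adjusted p up to 0.00125, 0.00465, 0.0101, 0.0192 and 0.018). SLC3A2 and SLC38A2 lost their calls under 9 each, and SLC43A1 under 4, all with the same direction. Leaving out 1 library each gave 5 to 8 transporters and 664 to 1731 genes called. The counts were lowest without HBG1 sgRNA DMSO replicate 2 (5 and 664), rapamycin replicate 3 (5 and 693) and DMSO replicate 3 (5 and 749). Without both replicate 1 libraries, chosen after seeing the data, they were 8 and 2110. The replicate block called 3441 genes and the additive model over both guides 3263. The block changed no call of a transporter.

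Between guides, the count over all genes was 7, with 91 without a filter, 13 with DESeq2, 11 with the replicate block over replicates 1 and 2, and 3 (without non-targeting rapamycin replicate 1) to 8 leaving out 1 library. The count of transporters was 1 without a filter (SLC7A1) and 0 in the other fits. Uncalled values near 0 changed sign, SLC3A2 (0.04, range -0.02 to 0.09 leaving out 1 library) and SLC6A9 (-0.07, range -0.16 to 0.08, with 0.01 without non-targeting rapamycin replicate 1). For the interaction the count over all genes was 1. It was 0 with library totals only, 0 with a minimum count of 50, 0 with DESeq2, 8 without a filter, 5 with the replicate block within each guide, and 0 to 4 leaving out 1 library, with 4 without HBG1 sgRNA rapamycin replicate 1, 3 without DMSO replicate 1 or 3, and 0 without each of the others. Interactions near 0 changed sign leaving out 1 library, SLC7A5 (0.07, range -0.03 to 0.19), SLC38A1 (-0.15, range -0.29 to 0.01) and SLC43A1 (0.03, range -0.06 to 0.13). SLC38A1 was also at 0.01 with the replicate block within each guide. Without the single non-targeting DMSO library there is no interaction to fit. The cause of these differences was not tested. SLC6A9 had the fewest counts (163 to 365 per library) and the largest SE among the transporters (0.17).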
